A study of Mus musculus with 17 samples.

Results

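Heat shock proteins are molecular chaperones that hold, fold and disaggregate other proteins. The genes described here are 10 of them, taken by symbol: the HSP70 genes Hspa1a, Hspa1b and Hspa8, the HSP110 gene Hsph1, the J-domain gene Dnajb1, the HSP90 genes Hsp90aa1 and Hsp90ab1, the chaperonin pair Hspd1 and Hspe1, and the small heat shock protein gene Hspb1. They were chosen by measured values, the higher counts of Hspa1a, Hspa1b and Hsph1 after ISRIB in these same libraries, so the ISRIB values of the members are given below as a description, with no p-value, and the number of them called there is set beside the background and supports nothing. All 10 were found among 43430 gene IDs and all 10 passed the filter on low counts in both experiments. The list was put together as cytosolic chaperones, but the proteins made from Hspd1 and Hspe1 (HSP60 and HSP10) work in the mitochondrial matrix.

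The cells were alveolar epithelial type 2 (AT2) cells, which make and secrete lung surfactant, sorted by flow cytometry from C57BL/6J mice 2 months old. In the ISRIB experiment, 4 libraries came from cells taken 24 hours after ISRIB and 4 from cells taken 24 hours after vehicle, in mice labelled naive, and the NEBNext kit with poly(A) selection was used on 3 ng of RNA. In the bleomycin experiment, 5 libraries came from cells taken 14 days after bleomycin and 4 from naive mice, and the SMARTer total-RNA Pico kit was used on 0.35 ng. All 9 of the latter carry the treatment label vehicle, and saline appears in their titles; the ISRIB experiment's 4 vehicle libraries have titles with saline too. ISRIB is a small molecule that inhibits the integrated stress response by stabilising the translation initiation factor eIF2B, and bleomycin is a DNA-damaging agent used to injure the lung. The labels give no dose and do not say whether each library is a separate mouse, so p-values measure the spread between these libraries.

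Under resting conditions HSP90, HSP70 and the J-domain protein DNAJB1 hold the transcription factor HSF1 inactive; when unfolded proteins accumulate, HSF1 forms trimers and binds heat shock elements, which are inverted repeats of the unit GAA. HSC70 (Hspa8) and HSP90-beta (Hsp90ab1) are made at all times, whereas Hspa1a and Hspa1b are the strongly inducible HSP70 genes. The integrated stress response works through another factor, ATF4, which binds C/EBP-ATF response elements. AT2 cells carry a heavy load of secretory protein because they make surfactant.

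Hspa1a and Hspa1b were the 2 members with the largest differences after ISRIB, and their promoters are shown because they are nearly one sequence. The windows are from RefSeq (GRCm38.p6) and run from 250 bases before the start of transcription to 50 bases from it on. Of these 300 bases, 4 differ between the paralogs: C44T, T47C, T249G and C276T, with the Hspa1a base first and positions counted from 1 at the window's 5′ end. The 250 bases before the start lie at chr17:34972157-34972406 on the minus strand for Hspa1a and at chr17:34959239-34959488 on the minus strand for Hspa1b. Capitals mark a run that holds the exact letters GAANNTTC and matches a 3-unit element (GAANNTTC followed by NNGAA) with at most 1 mismatch.
Hspa1a: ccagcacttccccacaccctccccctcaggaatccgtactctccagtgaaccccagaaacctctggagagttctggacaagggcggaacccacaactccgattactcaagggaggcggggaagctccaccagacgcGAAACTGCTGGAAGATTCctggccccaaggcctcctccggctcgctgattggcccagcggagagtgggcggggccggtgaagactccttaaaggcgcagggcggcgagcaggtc
Hspa1b: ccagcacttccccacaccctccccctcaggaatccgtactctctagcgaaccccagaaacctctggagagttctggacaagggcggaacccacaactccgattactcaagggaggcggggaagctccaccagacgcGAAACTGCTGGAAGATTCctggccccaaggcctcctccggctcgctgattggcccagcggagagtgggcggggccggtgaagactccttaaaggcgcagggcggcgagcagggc
In both genes the run spans positions -114 to -97 from the start, and none of the 4 differing bases falls inside it.

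Hspb1 and Hsph1 are shown next because both were higher after bleomycin, and Hspe1 because its element is shared with Hspd1. The Hspb1 stretch is chr5:135887669-135887918 on the plus strand. The Hsph1 stretches are chr5:149636346-149636375 and chr5:149636287-149636311 on the minus strand, on either side of the upstream of the 2 RefSeq starts, at base 149636336; both lie in annotated exons, since GENCODE places the gene's 5′ end farther upstream. The Hspe1 stretch is chr1:55088053-55088082 on the plus strand and lies in an exon of a coding gene too. Capitals again mark heat shock element letters.
Hspb1: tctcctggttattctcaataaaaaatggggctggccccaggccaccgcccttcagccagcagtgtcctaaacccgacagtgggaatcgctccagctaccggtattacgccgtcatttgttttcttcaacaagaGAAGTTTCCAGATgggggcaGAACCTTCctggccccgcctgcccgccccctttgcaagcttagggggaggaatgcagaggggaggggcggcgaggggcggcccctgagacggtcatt
Hsph1, before that start: gaatctTTCTCGAAGGCTCGAGAAgaagga
Hsph1, after that start: aatgctGCAGATTCTGGAAAGTTCt
Hspe1: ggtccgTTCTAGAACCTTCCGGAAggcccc
The Hspe1 element lies at positions -89 to -72 from its start, and the same bases lie at -144 to -127 from the second of the annotated Hspd1 starts, since the pair is transcribed head to head. Hspb1 holds GAANNTTC at positions -117 to -110 and -97 to -90.

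RefSeq windows were matched for 7 of the 10 members, with 10 windows among them; Hsp90aa1, Hsp90ab1 and Hspa8 had none. On both strands, GAANNTTC or TTCNNGAA was found in 6 of the 7 members, Dnajb1 being the exception, and in 15.1% of all 32851 windows (17.0% of 27025 genes). The 3-unit letters, GAANNTTC followed by NNGAA, contain both shorter motifs. They were found exactly in Hsph1, Hspd1 and Hspe1 and in 0.603% of all windows (0.662% of genes). With at most 1 mismatch they were found in the same 6 members and in 7.22% of all windows (8.15% of genes). The 6 are not separate cases: the Hspd1 and Hspe1 matches are the same bases, and those of Hspa1a and Hspa1b are identical. The letters TGATGNAA, a form of the C/EBP-ATF response element, were in 0 of the 7 members and 3.97% of all windows (4.51% of genes). The TATA box letters TATAAA were in 0 of the 7 and 13.6% of all windows (15.7% of genes). These are letters in a window, not measured binding.

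**Figure D1:**
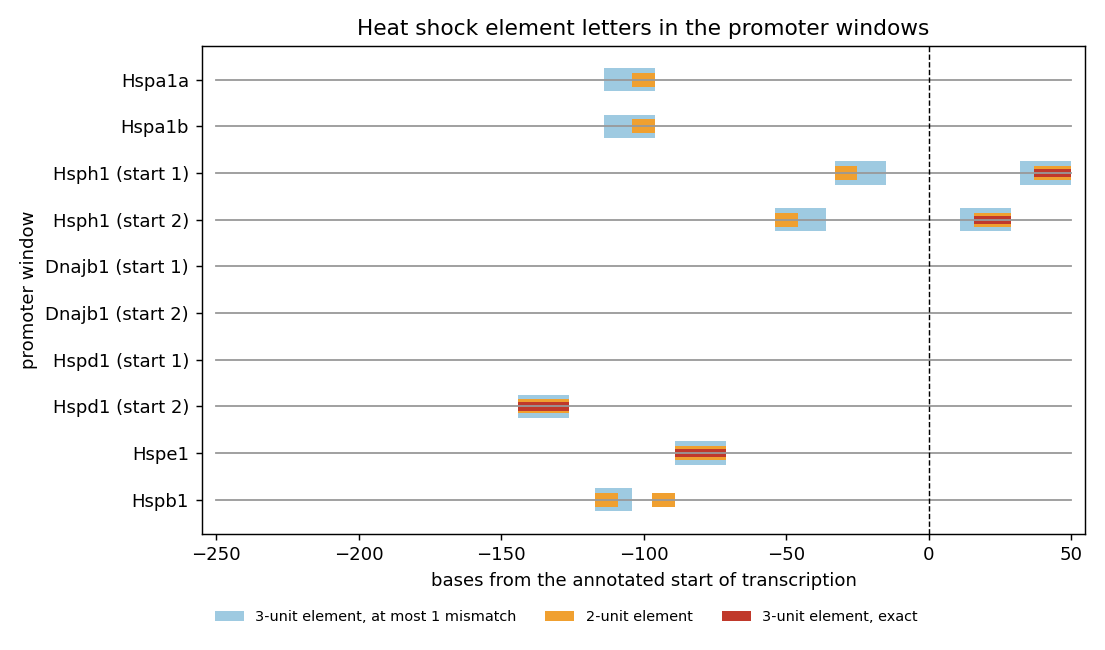
Positions of heat shock element letters in the 10 promoter windows of 7 members; the x axis is the distance in bases from the annotated start, and bars mark a 2-unit element, an exact 3-unit element or a 3-unit element with at most 1 mismatch. Hspa1a and Hspa1b carry theirs at the same positions, -114 to -97, and neither Dnajb1 window holds any.

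Levels between genes were compared as CPM (read counts scaled to the library's size) per kilobase of exon. In vehicle libraries Hsp90ab1 was the most abundant member at 462 ± 50.3 CPM per kilobase (SD, n = 4), followed by Hspa8 at 112 ± 13.7 and Hsp90aa1 at 56.3 ± 5.01. The range of Hspb1, 38.0 to 59.6, overlapped that of Hsp90aa1, 50.7 to 62.1. Hspd1 came next at 28.1 to 32.5, then Hspe1 at 16.3 to 20.7 and Dnajb1 at 14.9 to 23.3, which overlapped each other. Hsph1 at 2.59 to 3.60, Hspa1b at 1.29 to 7.44 and Hspa1a at 0.768 to 5.17 CPM per kilobase formed the low end, and their ranges overlapped. The order Hsp90ab1, Hspa8, Hsp90aa1 led all 4 groups. Hspa1a was last in vehicle, naive and bleomycin libraries. In ISRIB libraries Hsph1 was last at 7.23 ± 2.64, and Hspa1b stood 7th of the 10 at 19.5 ± 12.6 CPM per kilobase. These levels were not corrected for sequence shared with other genes. Of 75-base windows, 61.7% were shared in Hspa1a and 55.8% in Hspa1b transcripts, against 0% in Hsph1. The order of these 3 genes is therefore uncertain. The kits were not compared with each other, since poly(A) and total-RNA libraries differ in what they capture.

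The ISRIB comparison asks what blocking the integrated stress response does to AT2 cells in uninjured lungs. The 2 inducible HSP70 genes were several-fold higher in most ISRIB libraries, Hsph1 and Dnajb1 moderately higher, Hspa8 and Hsp90aa1 slightly higher, and Hsp90ab1, Hspd1, Hspe1 and Hspb1 differed little. By edgeR's quasi-likelihood test, 5 of the 10 members (Hspa1a, Hspa1b, Hsph1, Dnajb1 and Hspa8) were called higher and 0 lower at an adjusted p under 0.05, against 1.10% of 12054 genes called higher; since Hspa1a, Hspa1b and Hsph1 were the reason for the choice, nothing is read from that count. The median log2 fold change was 0.35 over the members and -0.00014 over all genes tested. Within their groups, vehicle 4 stood high and ISRIB 2 low for most members. Without vehicle 1 or without vehicle 2, 1 member was called.

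Hspa1a, at chr17:34969190-34972156 (GRCm38, a gene of 1 exon), had 2.28, 4.25, 4.06 and 15.3 CPM in vehicle libraries 1 to 4 and 33.8, 5.61, 67.6 and 41.9 CPM in ISRIB libraries 1 to 4. Vehicle 4 stood above its group and ISRIB 2 far below its own, so that the groups overlapped through these libraries. The log2 fold change, ISRIB minus vehicle, was 2.57 (SE 0.54), a fold of 5.93. Hspa1b, at chr17:34956436-34959238 and also of 1 exon, had 3.86, 3.62, 5.97 and 20.9 CPM in vehicle and 45.4, 11.1, 94.99 and 67.4 CPM in ISRIB libraries. Its log2 fold change was 2.71 (SE 0.52), a fold of 6.55, and the same libraries stood apart. Without vehicle 4 the 2 differences were 3.37 and 3.56, without ISRIB 2 they were 2.93 and 3.05, and without ISRIB 3, the highest library, 2.12 and 2.31 on the log2 scale.

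The paralogs make nearly identical transcripts: 61.7% of the 75-base windows of Hspa1a transcripts and 55.8% of those of Hspa1b occur in transcripts of another gene, mostly each other's, so how the deposited counts were split between them is uncertain. Summed, they gave 6.14, 7.87, 10.03 and 36.2 CPM in vehicle and 79.2, 16.7, 163 and 109 CPM in ISRIB libraries, a mean of 15.1 ± 14.2 against 92.0 ± 60.9 CPM (SD, n = 4 each). The sum differed by 2.65 on the log2 scale (SE 0.52). Hspa1b supplied 56.5 ± 7.33% of the summed counts in vehicle and 61.0 ± 4.13% in ISRIB libraries (SD, n = 4 each). The share ran from 46.0 to 62.9% in vehicle and from 57.3 to 66.5% in ISRIB libraries, and these ranges overlapped. Exons of Hspa1a also overlap those of Gm20481 on the opposite strand over 564 bases, and which strand was counted is not stated in the labels.

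Hsph1, at chr5:149614287-149636376, encodes HSP110, a nucleotide exchange factor that recharges HSP70. It had 20.95, 18.8, 26.2 and 24.5 CPM in vehicle and 40.9, 32.04, 72.5 and 64.7 CPM in ISRIB libraries. It was the 1 member of the 10 whose groups did not overlap, where 8.65% of all genes tested did not overlap (4.26% wholly higher and 4.39% wholly lower). The log2 fold change was 1.201 (SE 0.19), a fold of 2.30, and ran from 1.01 to 1.38 with any 1 library left out.

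Dnajb1, at chr8:83608193-83612653, encodes the HSP40 that delivers substrates to HSP70. It had 47.7, 51.0, 47.7 and 74.5 CPM in vehicle and 92.6, 60.2, 112 and 90.9 CPM in ISRIB libraries, a log2 fold change of 0.69 (SE 0.15). Hspa8, the constitutive HSC70 at chr9:40800984-40810087, had 422, 465, 563 and 477 CPM in vehicle and 604, 514, 740 and 706 CPM in ISRIB libraries, a log2 fold change of 0.41 (SE 0.10). Hsp90aa1, the inducible HSP90-alpha gene at chr12:110690605-110702728, had 212, 199, 229 and 244 CPM in vehicle and 250.4, 224, 314 and 292 CPM in ISRIB libraries, a log2 fold change of 0.29 (SE 0.09). In each of these genes, as in Hspa1a and Hspa1b, ISRIB libraries 1, 3 and 4 lay above every vehicle library and ISRIB 2 lay within the vehicle range.

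The other 4 members showed no such pattern. Hsp90ab1, the constitutive HSP90-beta gene at chr17:45567775-45573271, had 1431, 1306, 1229.8 and 1575 CPM in vehicle and 1246, 1293, 1573 and 1419 CPM in ISRIB libraries, with a log2 fold change of -0.0023 (95% interval -0.17 to 0.16). Hspd1 at chr1:55077835-55088243 differed by 0.05 (interval -0.09 to 0.19) and Hspe1 at chr1:55088132-55091307 by -0.04 (interval -0.24 to 0.15) on the log2 scale, with the vehicle and ISRIB ranges of both overlapping widely. These genes face away from each other and share 112 bases of exon on opposite strands. Hspb1, at chr5:135887919-135889563, which encodes HSP25, had 49.98, 42.4, 39.1 and 61.4 CPM in vehicle and 35.6, 47.7, 47.4 and 46.9 CPM in ISRIB libraries, a log2 fold change of -0.12 (interval -0.37 to 0.14).

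**Figure D2:**
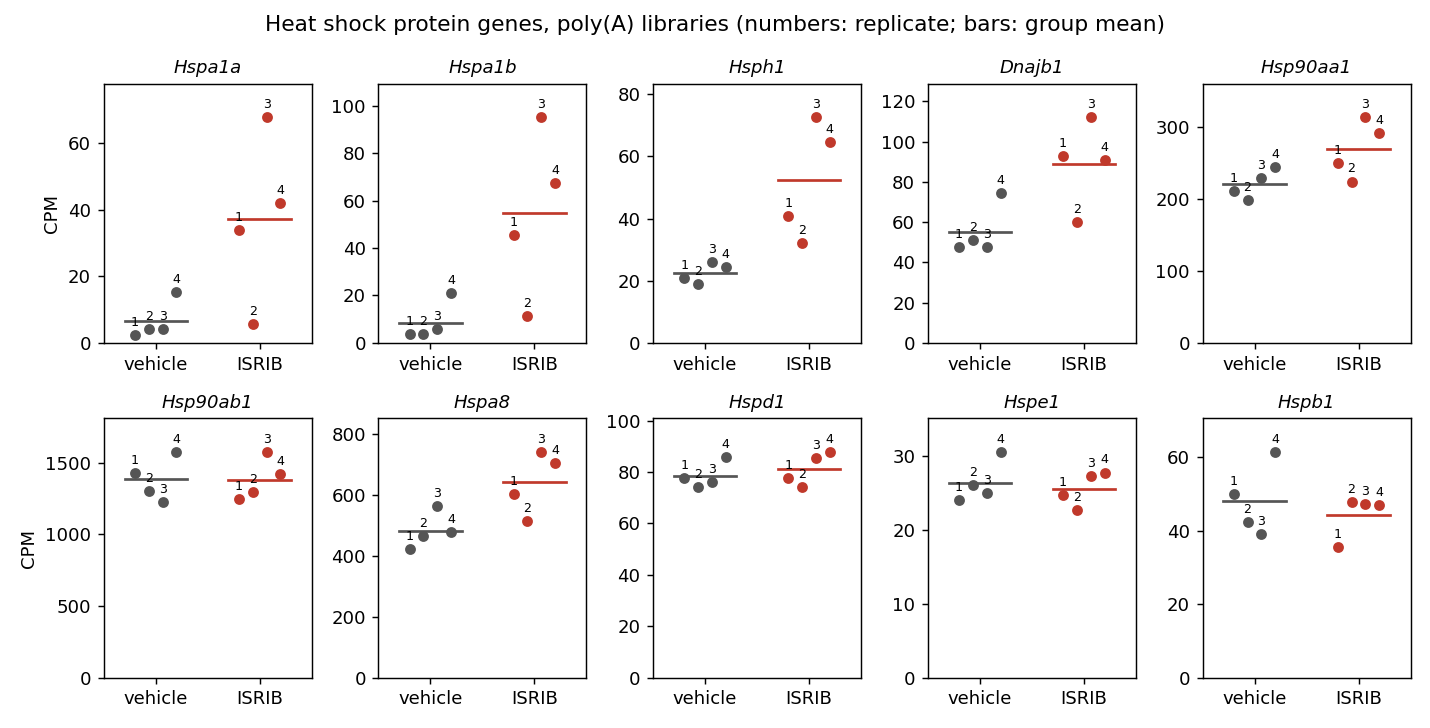
CPM of the 10 members in each poly(A) library (linear axis from 0, 1 panel per gene), 4 vehicle and 4 ISRIB points numbered by replicate with a bar at each group's mean. Vehicle 4 is highest of its group for Hspa1a (15.3) and Hspa1b (20.9), and ISRIB 2 is lowest of its group for both (5.61 and 11.1).

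The members varied together between libraries of one group. Vehicle 4 was the highest vehicle library for 8 of the 10 members, ISRIB 2 the lowest ISRIB library for 8 and ISRIB 3 the highest for 7. ISRIB 3 and ISRIB 4 lay above the mean of their group (of log2 CPM, here and below) for all 10 members, ISRIB 2 for 1 and vehicle 2 for 0. The spread was widest in the inducible pair: the coefficient of variation of Hspa1a was 92.0% in vehicle and 68.6% in ISRIB libraries, against 6.47% and 7.90% for Hspd1. Total counts, 10493574 to 15727139 in these libraries, were 10493574 in vehicle 4 and 12197232 in ISRIB 2, inside the range of the others for the latter and the lowest for the former.

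As a description, the deviation of each gene's log2 CPM from its group's mean was correlated with that of the Hspa1a and Hspa1b sum over the 8 libraries. Pearson's r was 0.97 for Dnajb1, 0.92 for Hspe1, 0.89 for Hsp90aa1, 0.87 for Hspd1, 0.79 for Hsph1, 0.69 for Hspa8, 0.64 for Hsp90ab1 and 0.30 for Hspb1, and its median over all genes tested was 0.0024. Hspe1 and Hspd1 were among the higher values although their group means differed little. Outside the members, the highest values were those of Rgs9bp (0.98), Dr1 (0.98), Ints10 (0.97), Rab6a (0.97) and Pnpla8 (0.97), which are high by selection among all genes tested. All genes of a library share its sequencing depth and RNA quality, whose part in these correlations was not tested, and no p is given.

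**Figure D3:**
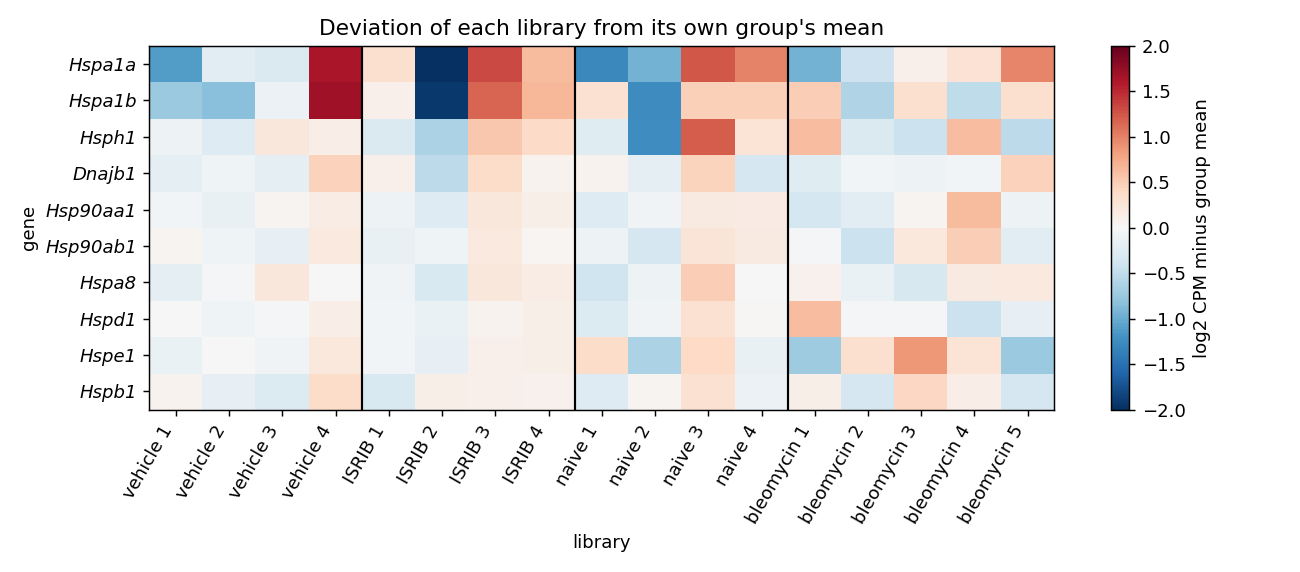
Deviation of each member's log2 CPM from its group's mean, as colour (red above, blue below), genes in rows and the 17 libraries in columns. Whole columns share a sign: ISRIB 3, ISRIB 4 and naive 3 are above the mean for all 10 members, and vehicle 2 is below it for all 10.

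The rest of the chaperone network was taken from 8 lists, drawn up with earlier results of these data known. They hold 77 genes, 76 of which were matched, 67 of them tested. After ISRIB, 6 were called higher and 1 lower, 10.4% of those tested against 2.20% of all genes, with a median log2 fold change of 0.05. Chordc1, an HSP90 cochaperone, had a mean of 40.9 ± 5.34 CPM in vehicle and 67.6 ± 16.7 CPM in ISRIB libraries (SD, n = 4 each; adjusted p = 0.0121 by edgeR). Dnaja4, another HSP40 gene, went from 31.7 ± 4.54 to 43.8 ± 2.04 CPM (adjusted p = 0.0129 by edgeR). Their log2 fold changes were 0.72 and 0.46, and the groups overlapped in neither gene. Dnaja1 (log2 fold change 0.89), Bag3 (0.40) and Serpinh1 (0.39) were called higher with groups that overlapped; they are named here after their values were seen. The gene that fell was Hsp90b1, which encodes GRP94, the HSP90 of the endoplasmic reticulum: 696 ± 37.1 CPM in vehicle and 555 ± 17.5 CPM in ISRIB libraries, a log2 fold change of -0.33 (adjusted p = 0.00468 by edgeR). Hsf1 itself had 24.0 ± 0.548 and 22.8 ± 1.52 CPM, a log2 fold change of -0.08 (interval -0.24 to 0.09; adjusted p = 0.687 by edgeR). Without vehicle 1 the count of pathway genes called was 4, and without vehicle 2 it was 3.

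Immediate-early genes, which can mark handling of the cells, were divided: of 15 tested after ISRIB, Jun and Nr4a3 were called higher and Junb and Egr1 lower, with a median log2 fold change of -0.14. Their part in the members' values was not tested. Markers of mesenchymal, endothelial and myeloid cells were low and their ranges overlapped: mesenchymal markers summed to 17.7 to 27.3 CPM in vehicle and 13.8 to 26.2 in ISRIB libraries, endothelial markers to 34.8 to 53.0 and 41.1 to 46.6, and myeloid markers apart from Lyz2, which AT2 cells also express, to 7.505 to 9.36 and 6.55 to 9.35. Of single markers, the myeloid Chil3 was called lower, from 1.24 ± 0.243 to 0.349 ± 0.277 CPM, as was the AT2 gene Etv5, from 964 ± 37.3 to 793 ± 23.3 CPM (SD, n = 4 each; adjusted p = 0.0440 and 0.00817 by edgeR), and neither pair of groups overlapped. Airway markers summed to 3781 to 4254 and 2395 to 4188 CPM. AT2 markers summed to 184600 to 187700 CPM in vehicle and 180300 to 188800 in ISRIB libraries, and 7 of 8 lymphocyte markers were at 0 in every library. In bulk RNA of sorted cells, fewer cells with a transcript and less of it per cell cannot be told apart.

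The bleomycin comparison asks what AT2 cells are like 14 days into lung injury. The rule that chose the members did not use it, although the members were listed with earlier results of these data known. The values here are tested, with that limit. The HSP90 genes, Hsph1, Hspa8, Hspd1 and Hspb1 rose, by 1.43-fold to 2.58-fold, while Hspa1a, Hspa1b, Dnajb1 and Hspe1 did not pass the test. By edgeR's quasi-likelihood test, 6 of the 10 members were called higher and 0 lower, against 11.2% of 11223 genes called higher and 9.31% called lower, and all 10 had a positive log2 fold change. The median log2 fold change was 0.62 over the members and 0.0026 over all genes tested. Groups lay wholly apart in 3 members (Hsp90aa1, Hsp90ab1 and Hspb1), all higher, where 19.7% of all genes tested lay wholly apart (10.4% higher). Within its group, naive 3 stood high for every member. The difference between the 2 comparisons was not tested, since the kits differ.

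Hsp90aa1 had 157, 178, 211 and 209.8 CPM in naive libraries 1 to 4 and 276, 299, 365, 542 and 328 CPM in bleomycin libraries 1 to 5. Every bleomycin library was above every naive library, and bleomycin 4 was the highest. The log2 fold change, bleomycin minus naive, was 0.94 (SE 0.17, adjusted p = 7.68e-04 by edgeR), a fold of 1.91. Hsp90ab1, the most abundant member, had 904, 766, 1152 and 1102 CPM in naive and 1569.6, 1207, 1867, 2270.1 and 1379.5 CPM in bleomycin libraries. Its groups did not overlap either, and bleomycin minus naive was 0.76 on the log2 scale (SE 0.17, adjusted p = 0.00451 by edgeR). Without bleomycin 4 the differences were 0.75 and 0.62.

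Hspb1, a small heat shock protein that holds unfolded proteins for refolding, had 5.70, 7.05, 8.41 and 6.26 CPM in naive and 14.3, 10.5, 17.7, 14.5 and 10.5 CPM in bleomycin libraries. Its groups did not overlap, and the log2 fold change was 0.97 (SE 0.26, adjusted p = 0.0131 by edgeR), a fold of 1.95. This gene differed by -0.12 after ISRIB.

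Hsph1 showed the largest rise, with 19.8, 9.83, 54.0 and 28.0 CPM in naive and 104, 54.9, 49.9, 104 and 47.0 CPM in bleomycin libraries. Naive 3 lay above bleomycin 3 and bleomycin 5, and the remaining naive libraries lay below all bleomycin libraries. The log2 fold change was 1.36 (SE 0.35, adjusted p = 0.00988 by edgeR), a fold of 2.58, and was 1.91 without naive 3 and 1.06 without naive 2.

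Hspa8 had 309, 379, 575 and 409 CPM in naive and 664, 572, 499 and 707 CPM in bleomycin libraries 1 to 4, with 719 CPM in bleomycin 5. Naive 3 overlapped the bleomycin range here too. The log2 fold change was 0.60 (SE 0.16, adjusted p = 0.0127 by edgeR), and the call was lost without naive 1 (0.48, adjusted p = 0.0617 by edgeR) or naive 2 (0.55, adjusted p = 0.0505 by edgeR). Hspd1 had 43.9, 50.6, 65.8 and 53.9 CPM in naive and 115, 73.6, 73.6, 55.4 and 66.7 CPM in bleomycin libraries, with naive 3 above bleomycin 4. Its log2 fold change of 0.52 (SE 0.18, adjusted p = 0.0479 by edgeR) was just inside the threshold and was 0.34 (adjusted p = 0.0934 by edgeR) without bleomycin 1. The call was lost with any 1 of 6 of the 9 libraries left out.

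Hspa1a, by contrast, had 1.34, 1.71, 7.81 and 6.56 CPM in naive and 2.65, 3.79, 5.42, 6.19 and 9.98 CPM in bleomycin libraries, counts of 4 to 63 reads. The groups overlapped, and the log2 fold change was 0.39 (SE 0.51, 95% interval -0.69 to 1.46, adjusted p = 0.647 by edgeR). Hspa1b had 5.03, 1.71, 5.70 and 5.66 CPM in naive and 9.26, 4.33, 8.21, 4.64 and 8.23 CPM in bleomycin libraries, a log2 fold change of 0.64 (interval -0.20 to 1.49, adjusted p = 0.284 by edgeR). Summed, the paralogs differed by 0.52 on the log2 scale (SE 0.35, adjusted p = 0.314 by edgeR). At this depth a difference of about 1 on the log2 scale lies inside both intervals.

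The share of Hspa1b in the summed counts was 54.4 ± 16.7% in naive (SD, n = 4) and 55.9 ± 14.0% in bleomycin libraries (SD, n = 5), a difference of 1.51 percentage points (two-sided exact permutation p = 0.873 over all regroupings of the libraries, the smallest possible being 0.0159). It rests on 16 to 115 reads a library. In naive 3, for example, 19 of 45 reads gave a share of 42.2% with an exact Clopper-Pearson 95% interval of 27.7 to 57.9%, which covers counting error only.

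Dnajb1 had 24.5, 20.5, 31.8 and 18.5 CPM in naive and 22.5, 25.4, 24.6, 25.4 and 36.3 CPM in bleomycin libraries, a log2 fold change of 0.18 (interval -0.23 to 0.59, adjusted p = 0.562 by edgeR). Hspe1 had 9.39, 4.70, 9.61 and 6.56 CPM in naive and 4.50, 9.20, 13.5, 8.97 and 4.43 CPM in bleomycin libraries, a log2 fold change of 0.13 (interval -0.64 to 0.89, adjusted p = 0.843 by edgeR). Its partner in the chaperonin, Hspd1, was called from the same libraries, but the difference between the pair was not tested and the Hspe1 interval contains the Hspd1 value.

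**Figure D4:**
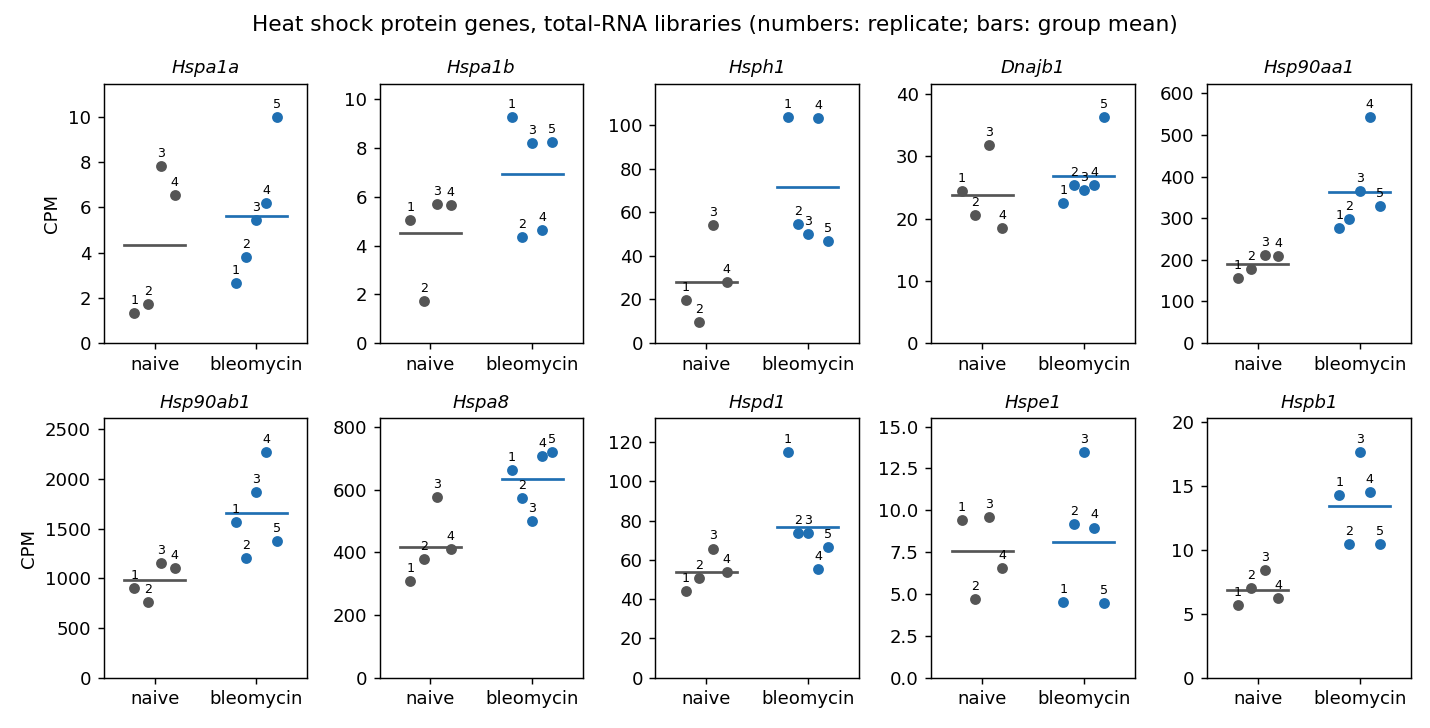
CPM of the 10 members in each total-RNA library (linear axis from 0, 1 panel per gene), 4 naive and 5 bleomycin points numbered by replicate with a bar at each group's mean. Hsp90aa1 (157 to 211 against 276 to 542), Hsp90ab1 and Hspb1 separate the groups, and Hspa1a and Hspa1b do not.

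Between libraries of one group, naive 3 was the highest naive library for all 10 members and lay above its group's mean for all 10, and naive 2 and bleomycin 2 lay above theirs for 1. Naive 3 had 3438133 counts of a range of 3295257 to 6333166, and ribosomal-RNA-like genes took 23.7% of them, within the 15.7 to 29.2% of the 9 libraries. Deviations of Hsph1 correlated with those of the Hspa1a and Hspa1b sum at r = 0.60 over the 9 libraries, and those of the other members outside the pair at 0.11 to 0.53, where the median over all genes tested was 0.014. The highest values outside the members were those of Irf3 (0.95), Zbtb4 (0.93), Slc25a25 (0.93), Otud3 (0.92) and Flywch1 (0.90), again by selection and with no p.

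Of the pathway genes outside the members, 64 were tested after bleomycin, and 13 were called higher and 1 lower, 21.9% against 20.5% of all genes, with a median log2 fold change of 0.24. The share called in either direction was near the background. By direction, 13 of the 64 were higher, where 11.2% of all genes were, and 1 was lower, where 9.31% of all genes were. The largest rise was that of Hspa2, an HSP70 gene best known from the testis, from 3.38 ± 2.64 CPM in naive to 20.2 ± 10.1 CPM in bleomycin libraries (log2 fold change 2.56, adjusted p = 5.72e-04 by edgeR). Cryab, the small heat shock protein alpha-B-crystallin, rose from 14.8 ± 1.13 to 33.9 ± 5.47 CPM (1.19, adjusted p = 1.15e-04 by edgeR). Serpinh1, the collagen chaperone HSP47, rose from 60.9 ± 14.0 to 127 ± 25.7 CPM (1.06, adjusted p = 2.60e-04 by edgeR), and Stip1, which links HSP70 to HSP90, from 49.6 ± 11.4 to 82.9 ± 16.2 CPM (0.74, adjusted p = 0.00406 by edgeR).

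Hsp90b1, which fell after ISRIB, rose from 858 ± 35.3 to 1271 ± 190.2 CPM (0.57, adjusted p = 0.00334 by edgeR). The HSP70 cofactor gene St13 had a log2 fold change of 0.52 (adjusted p = 0.0309 by edgeR). Cct2, which encodes a subunit of the cytosolic chaperonin, had one of 0.52 (adjusted p = 0.00780 by edgeR). The lens-type heat shock factor gene Hsf4 fell from 15.4 ± 3.53 to 8.52 ± 2.63 CPM (-0.82, adjusted p = 0.0351 by edgeR). The calls of St13 and Hsf4 were each lost with any 1 of 6 of the 9 libraries left out. Hsf1 had 20.6 ± 3.30 CPM in naive and 21.8 ± 5.04 CPM in bleomycin libraries (0.07, interval -0.36 to 0.50, adjusted p = 0.842 by edgeR). Groups here are 4 naive and 5 bleomycin libraries, with SD.

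The bleomycin libraries also differed in markers of other cells. Mesenchymal markers summed to 5.07 to 12.8 CPM in naive and 19.0 to 129.8 CPM in bleomycin libraries, with Col1a1, Col1a2 and Col3a1 called higher and Lum at 0 in all, so that every bleomycin library was above every naive library. The sum was 58.4, 129.8, 19.0, 30.9 and 29.0 CPM in bleomycin libraries 1 to 5. Bleomycin 1 was the highest library of its group for 3 members, bleomycin 3 for 2, bleomycin 4 for 2 and bleomycin 5 for 3. Bleomycin 2 lay below the group's mean for 9 of the 10 members. Endothelial markers summed to 19.4 to 26.5 and 19.8 to 80.4 CPM, with Cdh5 and Vwf called higher, and airway markers to 447.6 to 874.9 and 495.5 to 944.6 CPM, with the ciliated-cell gene Foxj1 called higher, from 3.37 ± 0.946 CPM (SD, n = 4) to 16.3 ± 13.9 CPM (SD, n = 5; adjusted p = 0.00440 by edgeR). Of the 8 AT1 markers, 6 were called higher (summed 1260 to 1505 against 2126 to 2455 CPM), and AT2 markers summed to 79780 to 82040 and 49010 to 90450 CPM, with Sftpd and Napsa called higher and Etv5 lower. Myeloid markers apart from Lyz2 summed to 5.80 to 8.80 and 5.25 to 9.63 CPM, with Marco, C1qa and S100a8 at 0, and lymphocyte markers to at most 1.52 CPM. Of 15 immediate-early genes tested, Ier3, Atf3 and Nr4a3 were called higher and Fos, Fosb, Jun, Ier2, Dusp1 and Zfp36 lower. That is 60% called, against 20.5% of all genes. The 18 listed immediate-early genes summed to 996.9 to 1252 CPM in naive and 701.6 to 909.2 CPM in bleomycin libraries, and these ranges did not overlap. The part of mesenchymal, endothelial, airway, AT1 and immediate-early transcripts in the members' values was not tested.

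**Figure D5:**
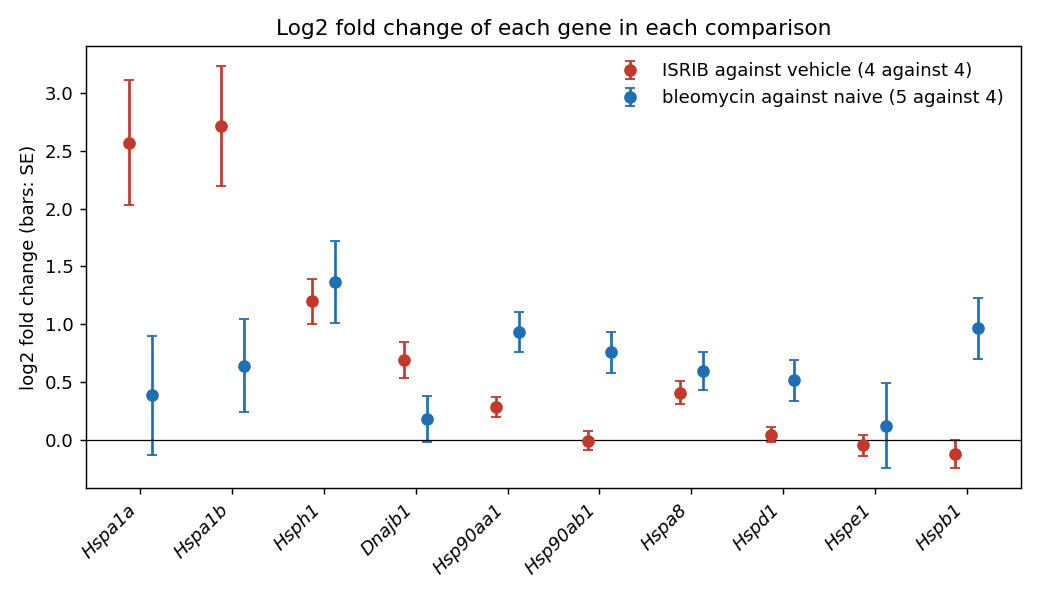
Log2 fold change of each member (ISRIB minus vehicle in red, bleomycin minus naive in blue), with bars of 1 SE; the line marks 0. Hspa1a and Hspa1b are farthest from 0 after ISRIB (2.57 and 2.71), and Hsph1 (1.36), Hspb1 (0.97) and Hsp90aa1 (0.94) after bleomycin.

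Many members have pseudogenes of near-identical sequence: 42.8% of the 75-base windows of Hsp90aa1 transcripts, 46.4% of those of Hspb1, 33.0% of those of Hspa8 and 31.0% of those of Hspd1 occur in another gene's transcripts. Reads from such windows may not be assignable to a single gene. How far this moved the counts was not measured, and the levels per kilobase were not corrected for it. That share was 61.7% for Hspa1a and 55.8% for Hspa1b, mostly through each other, and 0% for Hsph1 and Dnajb1. Exons of Hspa8 also hold the small nucleolar RNA genes Snord14c, Snord14d and Snord14e.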

How the data were processed

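The data are raw read counts per gene, whole numbers as deposited by the authors, in 1 table per kit. Per the submitters' processing notes, the tools were bcl2fastq 2.19.1, FastQC, Trimmomatic 0.36, STAR 2.6.0 and HTSeq 0.11.2 with build mm10; the annotation and strand setting are not stated there. Gene symbols, positions and exon lengths came from GENCODE M21 (GRCm38), with 42462 IDs matched. Counts were filtered (filterByExpr, minimum count 10, minimum total count 15), scaled by TMM and compared in edgeR 4.0.16 (R 4.3.3) by its quasi-likelihood F test, two-sided, group being the only term, with Benjamini-Hochberg adjustment over all genes tested within a kit; called means an adjusted p under 0.05. CPM use effective library sizes, and sums over marker lists use raw totals. The procedure was also run on counts simulated from the dispersions fitted here. Genes varied independently in that simulation, so it cannot test the effect of deviations shared across a library. Total counts were 3295257 to 15727139 a library, and the common biological coefficient of variation was 7.66% (ISRIB) and 21.1% (bleomycin), which limits low genes.

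The members and lists were chosen with earlier results of these data known. All members are named. Outside them, the rule named pathway genes called with groups that did not overlap (at most 8 per comparison, by absolute log2 fold change) and Hsf1, marker and immediate-early genes that were called, and the 5 genes per kit most like the Hspa1a and Hspa1b sum (prior count 2), gene models without an approved-style name passed over. Dnaja1, Bag3 and Serpinh1 after ISRIB fall outside this rule, since their groups overlapped, and were added after their values were seen. A result that the naming rule covers is not reported here. Alternatives were DESeq2 1.42.0, limma-voom 3.58.1, RLE factors, no filter, a replicate block, the summed paralogs, ribosomal-RNA-like and mitochondrial genes left out (bleomycin), and each library left out. Protein sequences were not used here.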

Additional observations from a re-analysis of the deposited data

Results flagged for a closer look

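Each member was examined in each of the 4 groups, 40 in all, for a library whose gap to its nearest neighbour was large for the group's range (Dixon's 95% critical value); 6 were found, where chance gives about 1 in 20. Vehicle 4 was far above the other vehicle libraries for Hspa1a (15.3 CPM, the next being 4.25), Hspa1b (20.9 CPM, the next 5.97) and Dnajb1 (74.5 CPM, the next 51.0). These 3 genes varied together within groups, so the 3 values are not independent. Hspb1 was far lower in ISRIB 1 (35.6 CPM) than in the next ISRIB library (46.9 CPM). In the total-RNA libraries, Hspa1b was far lower in naive 2 (1.71 CPM, from 8 reads) than in the next naive library (5.03 CPM), and Dnajb1 far higher in bleomycin 5 (36.3 CPM) than in the next bleomycin library (25.4 CPM).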

How the results depend on the processing

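Under all 14 alternatives Hspa1a, Hspa1b, Hsph1, Dnajb1, Hsp90aa1 and Hspa8 kept a positive ISRIB difference. Since Hspa1a, Hspa1b and Hsph1 were chosen for rising in these same libraries, nothing is read from that. Of the 14 alternatives, Hsph1 was called in 14, Hspa1b in 11, Hspa1a in 8, Hspa8 in 8 and Dnajb1 in 7. Hsp90aa1, not called in the main fit, was called in 4. Under all 16 alternatives Hsph1, Hsp90aa1, Hsp90ab1 and Hspb1 stayed called after bleomycin. Genes called after ISRIB numbered 265, against 648 with no filter on low counts and 86 to 269 with 1 library left out (86 without vehicle 1, 102 without vehicle 2, 159 without ISRIB 4); pathway genes called numbered 3 to 8. Members called after ISRIB numbered 5, against 3 by DESeq2 and by limma-voom and 1 to 6 with 1 library left out. After bleomycin, leaving out 1 library gave 1554 to 2584 genes and 9 to 15 pathway genes (9 without naive 1). Hspa8 ran from 0.48 to 0.79 and Hspd1 from 0.34 to 0.63 with 1 library left out. Hspd1 was 0.49 by limma-voom (adjusted p = 0.0649), no longer called. The cause of these changes was not tested.

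Deviations of same-numbered libraries showed little correlation (r from -0.11 to 0.08 over the ISRIB pairs and from -0.04 to 0.05 over the bleomycin pairs). The same number was the best match for replicates 3 and 4 in the ISRIB experiment and replicate 2 in the bleomycin experiment. Whether the numbers pair the libraries is not known, and correlations over so few libraries cannot decide it. With the replicate number as a block, 277 and 2099 genes were called, against 265 and 2304, and Hspd1 was 0.53 (adjusted p = 0.0526 by edgeR) after bleomycin.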
